A study of Mus musculus with 18 samples.

Results

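The FGF receptors and the feedback targets of FGF signalling were followed as 10 genes: the receptors Fgfr1, Fgfr2 and Fgfr3, the transcription factors Etv1, Etv4 and Etv5, and the inhibitors Spry1, Spry2, Spry4 and Dusp6. They were taken by symbol from the 47729 genes counted in the RNA libraries, and all 10 were among the 15000 genes with enough reads to test. The tissue was whole cortex of E15.5 mouse embryos. The compared embryos carried the labels BAF155 cKO, a conditional knockout of the chromatin remodelling subunit encoded by Smarcc1, together with TSA (trichostatin A, an inhibitor of histone deacetylases) or Vehicle. RNA was measured in 4 TSA and 4 Vehicle libraries, and H3K9ac, the acetylation of histone H3 at lysine 9 that marks active promoters, was measured by chromatin immunoprecipitation in another 4 TSA and 4 Vehicle libraries. The study's title names basal progenitors, which divide away from the ventricle, as the cells on which histone acetylation acts. Every library carries the knockout label, and TSA is set against Vehicle among knockouts alone. The driver of the deletion, the TSA dose and whether replicates were separate animals are not given in the labels, so p-values measure the spread between these libraries.

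In FGF signalling, secreted ligands bind FGF receptors together with heparan sulfate, and the receptors, which are tyrosine kinases, signal through adaptor proteins and Ras to the kinase ERK. ERK activity raises transcription of Etv1, Etv4 and Etv5, ETS-domain factors of the PEA3 family, and of Sprouty genes and Dusp6, whose products restrain the same cascade. In the developing cortex FGF receptors act in radial glia, the progenitors at the ventricle, where they favour self-renewal, and RNA of the Etv, Spry and Dusp6 genes is widely used as a readout of the pathway.

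RefSeq windows from 250 bases before to 50 bases after an annotated start were at hand for 7 of the 10 genes, in 10 windows (build GRCm38.p6). The 5 below show how the H3K9ac peaks lay at the start of a receptor, of a pair of Etv genes, of a Sprouty gene and of Dusp6. Capitals mark the bases that lay inside a peak in at least 6 of the 8 H3K9ac libraries. The windows are Fgfr3 (its second start, chr5:33722056-33722355, plus strand), Etv1 (its first start, chr12:38779832-38780131, plus strand), Etv5 (its first start, chr16:22439521-22439820, minus strand), Spry2 (chr14:105896770-105897069, minus strand) and Dusp6 (chr10:99262981-99263280, plus strand).
Fgfr3: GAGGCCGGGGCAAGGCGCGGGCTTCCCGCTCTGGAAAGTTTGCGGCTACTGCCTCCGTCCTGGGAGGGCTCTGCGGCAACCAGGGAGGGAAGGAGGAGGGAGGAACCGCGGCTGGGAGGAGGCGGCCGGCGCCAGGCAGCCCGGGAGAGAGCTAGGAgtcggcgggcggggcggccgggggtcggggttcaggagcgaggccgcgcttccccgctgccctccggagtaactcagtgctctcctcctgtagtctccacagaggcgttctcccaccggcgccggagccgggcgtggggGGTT
Etv1: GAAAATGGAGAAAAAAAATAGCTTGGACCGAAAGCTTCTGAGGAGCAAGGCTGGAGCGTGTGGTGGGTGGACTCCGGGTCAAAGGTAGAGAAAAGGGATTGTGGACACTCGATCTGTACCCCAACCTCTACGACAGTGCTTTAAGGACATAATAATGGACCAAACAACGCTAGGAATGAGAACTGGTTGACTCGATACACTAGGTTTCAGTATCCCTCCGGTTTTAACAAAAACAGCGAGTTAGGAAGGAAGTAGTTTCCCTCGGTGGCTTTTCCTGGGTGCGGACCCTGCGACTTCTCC
Etv5: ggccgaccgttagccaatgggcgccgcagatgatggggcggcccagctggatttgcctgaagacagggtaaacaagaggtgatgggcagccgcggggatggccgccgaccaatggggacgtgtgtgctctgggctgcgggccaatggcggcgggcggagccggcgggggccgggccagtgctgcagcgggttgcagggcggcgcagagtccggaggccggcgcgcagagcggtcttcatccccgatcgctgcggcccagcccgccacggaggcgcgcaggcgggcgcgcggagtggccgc
Spry2: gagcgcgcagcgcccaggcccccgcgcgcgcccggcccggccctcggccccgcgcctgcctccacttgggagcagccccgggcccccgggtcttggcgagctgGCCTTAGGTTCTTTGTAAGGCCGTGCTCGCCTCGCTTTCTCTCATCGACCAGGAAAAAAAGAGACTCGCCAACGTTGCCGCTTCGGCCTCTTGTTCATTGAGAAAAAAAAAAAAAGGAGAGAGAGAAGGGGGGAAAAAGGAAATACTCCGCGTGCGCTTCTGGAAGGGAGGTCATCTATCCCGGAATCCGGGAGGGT
Dusp6: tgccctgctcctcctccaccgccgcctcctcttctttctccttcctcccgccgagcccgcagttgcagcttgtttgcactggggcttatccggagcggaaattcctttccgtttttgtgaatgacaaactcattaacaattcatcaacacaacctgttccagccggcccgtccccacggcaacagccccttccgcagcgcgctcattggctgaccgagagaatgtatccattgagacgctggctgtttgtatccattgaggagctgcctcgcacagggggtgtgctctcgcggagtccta
The whole Etv1 window, 197 bases of the Spry2 window and 161 bases of the Fgfr3 window were in capitals, and none of the Etv5 or Dusp6 window was. The Etv5 window held 37 CG dinucleotides, the Fgfr3 window 30, the Spry2 window 28, the Dusp6 window 19 and the Etv1 window 12, against a median of 7 and quartiles of 3 and 20 over 32544 RefSeq windows of this length. The ETS-type motifs CCGGAAG and CAGGAAG, searched on both strands, were in 21.0% of all windows. Among the 10 windows of these genes, 1 copy of CAGGAAG was found, 209 bases before the Fgfr2 start. Only these exact sequences were searched, so other ETS-type sites were not counted.

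RNA totals were 6733415, 18080205, 20400727 and 16347934 counts in TSA 1 to 4, against 14216775, 15600340, 14357279 and 12200426 counts in Vehicle 1 to 4. Levels are given as CPM, read counts scaled to a common TMM-adjusted library total, which are not divided by gene length, so levels were not compared between genes. Smarcc1 had 133, 132, 118 and 144 CPM in TSA 1 to 4, against 130, 148, 141 and 124 CPM in Vehicle 1 to 4, and with no sample free of the knockout label these values do not check the deletion. Xist, the RNA of the inactive X chromosome, was at 0.305 to 1.47 CPM in TSA 1 to 3 and at 2327 CPM in TSA 4, against 1768 to 3118 CPM in Vehicle, so 3 TSA libraries stood apart from the other 5 libraries. Mitochondrial genes took 1.48% to 1.71% of counts in TSA, against 1.60% to 3.36% in Vehicle. The dorsal telencephalic marker Emx1 was present, at 31.6 ± 8.14 CPM in TSA against 17.8 ± 3.33 CPM in Vehicle (SD, n = 4 each). Summed dorsal telencephalic markers were at 727 to 874 CPM in TSA against 466 to 641 CPM in Vehicle. Of these, 3 of 4 were called higher and none lower, with log2 fold changes between -0.25 and 0.82. Summed markers of ganglionic eminence, the ventral source of interneurons, were at 515 to 744 CPM in TSA against 1013 to 1206 CPM in Vehicle. None of the 8 ganglionic eminence markers was at 0, and 7 were called lower and 1 higher. Summed markers of intermediate progenitors, the basal progenitors that come from radial glia, were at 581 to 694 CPM in TSA against 233 to 368 CPM in Vehicle, with 4 of 6 called higher and none lower. Those of radial glia overlapped at 2526 to 2645 CPM in TSA against 2422 to 2907 CPM in Vehicle, but the list was split, with 5 of 10 called higher and 3 lower and log2 fold changes between -1.54 and 0.72. Summed cortical neuron markers were at 3900 to 4509 CPM in TSA against 2824 to 3749 CPM in Vehicle, with 6 of 7 called higher, none lower and none at 0. Outside the neural lineages, summed erythroid markers were at 124 to 174 CPM in TSA against 186 to 460 CPM in Vehicle, with 2 of 5 called lower and none higher. The sums of microglia and of endothelium and pericytes overlapped, with 3 of 6 and 2 of 7 called lower and none higher. The part of these marker shifts in the results below was not tested. Counts in whole tissue cannot tell fewer cells of a type from less RNA per cell.

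Of the 10 genes, 3 rose in TSA (Fgfr1, Fgfr3 and Dusp6), Etv1 fell, and 6 did not pass the test, at a Benjamini-Hochberg adjusted p under 0.05 over all 15000 tested genes in edgeR's quasi-likelihood test. Of all tested genes, 15.4% were called higher and 17.6% lower in TSA, 33.0% in either direction. The median log2 fold change of the 10 genes was 0.30, against -0.01 over all tested genes. In 2 of the 10 genes (Dusp6 and Etv1) the TSA and Vehicle libraries did not overlap, which held for 32.3% of all tested genes. With Xist status as a covariate, where the difference rests on TSA 4 against the Vehicle libraries, 1 of the 10 genes was called higher and none lower, and 757 genes were called higher and 818 lower in all.

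**Figure D1:**
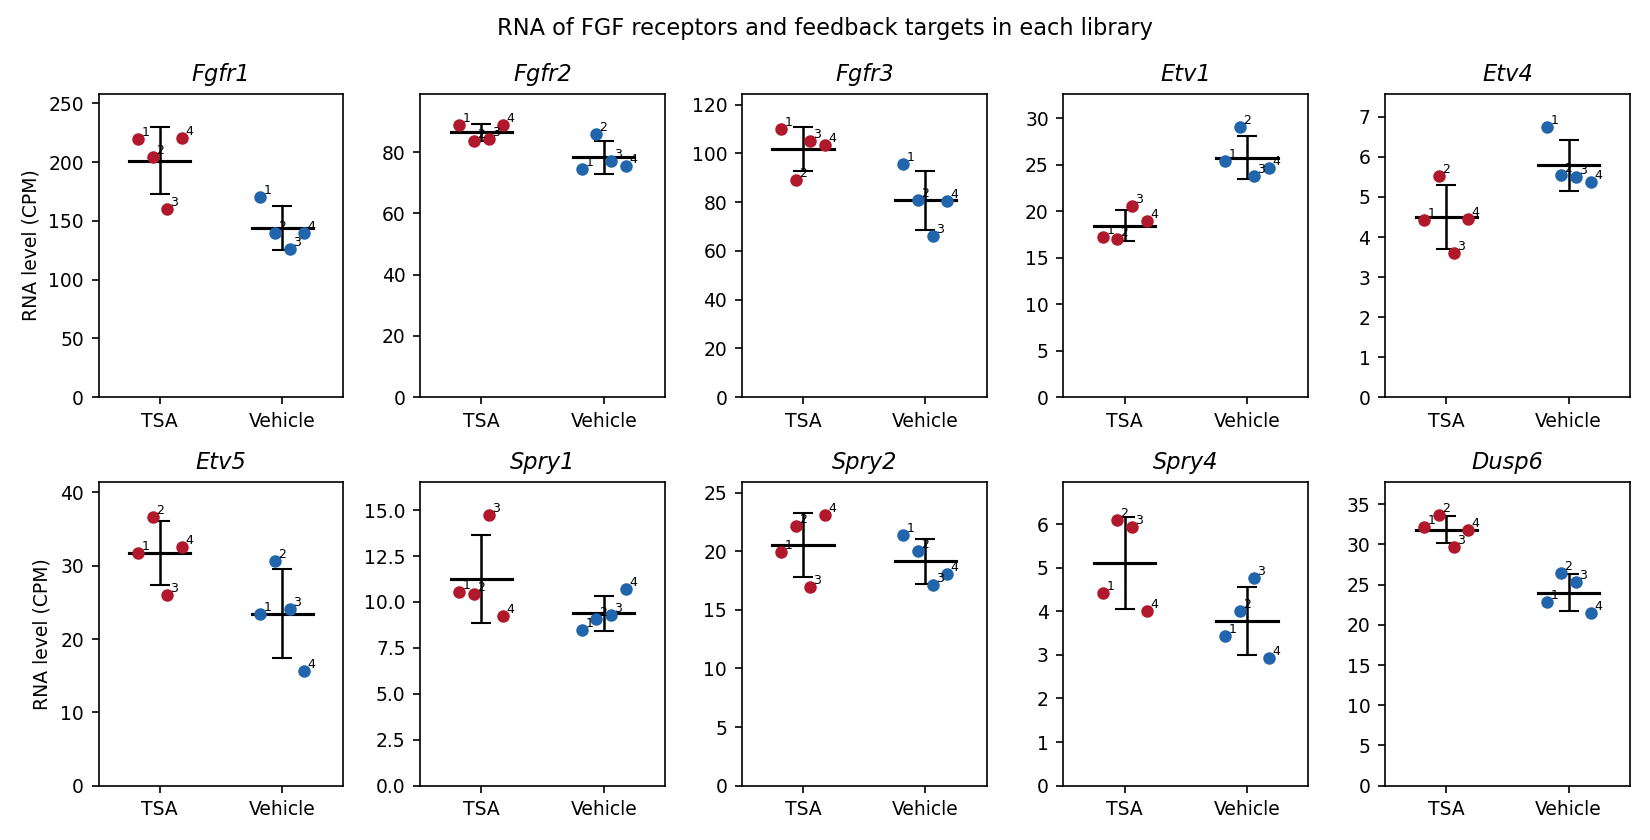
RNA level in CPM (vertical axis, from 0) of each of the 10 genes, with TSA left and Vehicle right, numbered points for the libraries, and a line and bar for the mean ± SD (n = 4). Dusp6 lies higher and Etv1 lower in every TSA library than in any Vehicle library, and the other 8 genes overlap.

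Fgfr1, the receptor with the largest log2 change of the 3, had 219, 205, 160 and 221 CPM in TSA 1 to 4, against 171, 139, 126 and 139 CPM in Vehicle 1 to 4. TSA 1, TSA 2 and TSA 4 lay above every Vehicle library, while TSA 3 lay below Vehicle 1, so the groups overlapped. On the log2 scale the change was 0.48 ± 0.12 (SE, 4 against 4 libraries, edgeR adjusted p = 0.00605). Xist status as a covariate gave 0.62 ± 0.18 (edgeR adjusted p = 0.0473), and Fgfr1 was called in every alternative run. The kit does not mark strand, and 2 annotated loci, Gm31288 and Gm16159, lie within or across the span of Fgfr1 (chromosome 8, 25518759 to 25575718), so reads from them cannot be told apart where they share bases.

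Fgfr3 encodes a receptor that is high in cortical progenitors. It had 110, 89.1, 105 and 104 CPM in TSA 1 to 4, against 95.8, 80.7, 66.0 and 80.4 CPM in Vehicle 1 to 4. TSA 1, TSA 3 and TSA 4 lay above all Vehicle libraries and TSA 2 lay below Vehicle 1. This gave a log2 fold change of 0.34 ± 0.11 (SE, 4 against 4 libraries, edgeR adjusted p = 0.0305). With Xist status as a covariate the change was 0.36 ± 0.18 and the call was lost (edgeR adjusted p = 0.221). It was also lost without TSA 1, TSA 3, TSA 4, Vehicle 3 or Vehicle 4, at edgeR adjusted p = 0.0952, 0.0668, 0.0724, 0.0936 and 0.0635 in that order.

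Fgfr2, another receptor of radial glia, had 89.0, 83.6, 84.3 and 88.9 CPM in TSA 1 to 4, against 74.7, 86.1, 77.1 and 75.4 CPM in Vehicle 1 to 4. Vehicle 2 lay among the TSA libraries and the other Vehicle libraries below them. Its log2 fold change was 0.14 ± 0.08 (SE, 4 against 4 libraries, edgeR adjusted p = 0.206).

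**Figure D2:**
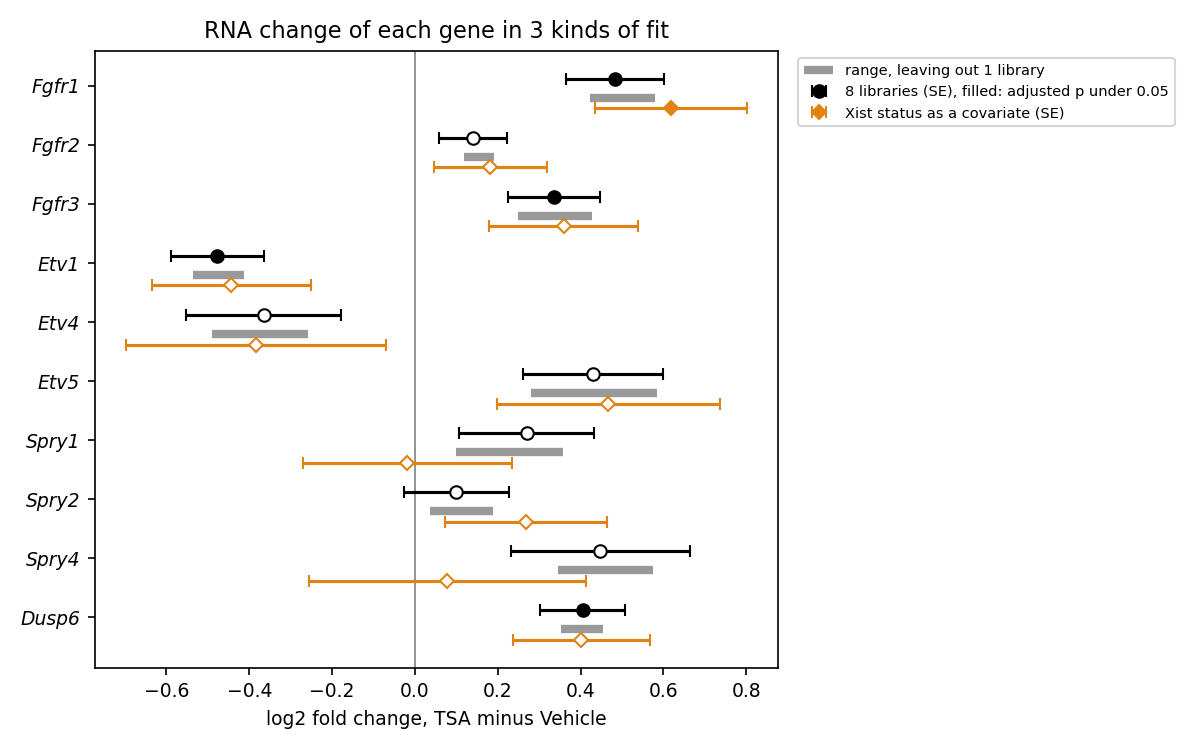
Log2 fold change of RNA, TSA minus Vehicle (horizontal axis), for each of the 10 genes: circles with SE from all 8 libraries, filled where the adjusted p is under 0.05, grey bars for the range when 1 library is left out, and diamonds with SE with Xist status as a covariate. Fgfr1 is filled in both fits, Fgfr3, Etv1 and Dusp6 in the fit of 8 libraries alone, and Spry1 and Spry4 lie near 0 with the covariate.

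Of the Etv factors, Etv1 was the one called. Etv1, which besides its link to FGF is a marker of layer 5 projection neurons, had 17.2, 17.0, 20.5 and 18.9 CPM in TSA 1 to 4, against 25.4, 29.1, 23.8 and 24.6 CPM in Vehicle 1 to 4. Each TSA library lay below each Vehicle library, with a log2 fold change of -0.48 ± 0.11 (SE, 4 against 4 libraries, edgeR adjusted p = 0.00494). The call was lost with Xist status as a covariate, at -0.44 ± 0.19 (edgeR adjusted p = 0.155), and held when any 1 library was left out. Summed layer 5 markers were at 673 to 783 CPM in TSA against 449 to 577 CPM in Vehicle, with 2 of 6 called higher, 2 called lower and none at 0. The ganglionic eminence sum was thus lower beside Etv1 and the layer 5 sum higher, and their part in the Etv1 change was not tested.

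Etv5, another PEA3 factor, had 31.7, 36.6, 26 and 32.5 CPM in TSA 1 to 4, against 23.4, 30.6, 24.1 and 15.7 CPM in Vehicle 1 to 4. Vehicle 2 lay among the TSA libraries, and Vehicle 4 was the lowest of all 8. TSA against Vehicle gave a log2 fold change of 0.43 ± 0.17 (SE, 4 against 4 libraries, edgeR adjusted p = 0.0663). Etv5 was called without TSA 3 (edgeR adjusted p = 0.0395), without Vehicle 2 (edgeR adjusted p = 0.00759), with no filter on low counts (edgeR adjusted p = 0.00517) and by DESeq2 (adjusted p = 0.0403).

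Etv4, the third factor of the family, had 4.42, 5.54, 3.60 and 4.44 CPM in TSA 1 to 4, against 6.74, 5.54, 5.51 and 5.38 CPM in Vehicle 1 to 4. TSA 2 lay among the Vehicle libraries and the other TSA libraries below them. Its log2 fold change was -0.36 ± 0.19 (SE, 4 against 4 libraries, edgeR adjusted p = 0.152), from 271 reads in TSA and 332 in Vehicle.

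Among the inhibitors, Dusp6, a phosphatase that removes the activating phosphates of ERK, was the one called. It had 32.2, 33.7, 29.7 and 31.8 CPM in TSA 1 to 4, against 22.9, 26.4, 25.3 and 21.5 CPM in Vehicle 1 to 4. All TSA libraries lay above all Vehicle libraries, with a narrow spread within each group. This was a log2 fold change of 0.40 ± 0.10 (SE, 4 against 4 libraries, edgeR adjusted p = 0.00762), and the call held when any 1 library was left out. With Xist status as a covariate the change was 0.40 ± 0.17 and the call was lost (edgeR adjusted p = 0.137). The span of Dusp6 shares 626 bases with the annotated locus Gm34921.

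The Sprouty genes, whose products block signalling between the receptor and ERK, did not pass the test. Spry2 had 20.0, 22.1, 17.0 and 23.1 CPM in TSA 1 to 4, against 21.4, 20.0, 17.2 and 18 CPM in Vehicle 1 to 4, with a log2 fold change of 0.10 ± 0.13 (SE, 4 against 4 libraries, edgeR adjusted p = 0.591). The Vehicle range of Spry2 lay within the TSA range. Spry1 had 10.5, 10.4, 14.7 and 9.25 CPM in TSA 1 to 4, against 8.46, 9.09, 9.30 and 10.7 CPM in Vehicle 1 to 4, with TSA 3 apart from the other libraries. Its log2 fold change was 0.27 ± 0.16 (SE, 4 against 4 libraries, edgeR adjusted p = 0.227), and -0.018 ± 0.253 with Xist status as a covariate. Spry4 had 4.42, 6.10, 5.93 and 4.0 CPM in TSA 1 to 4, against 3.44, 4.0, 4.75 and 2.93 CPM in Vehicle 1 to 4, from 321 reads in TSA and 218 in Vehicle. Its log2 fold change was 0.45 ± 0.22 (SE, 4 against 4 libraries, edgeR adjusted p = 0.128) and 0.079 with Xist status as a covariate.

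The libraries did not deviate alike for all genes of the set. TSA 3 was the lowest TSA library for Fgfr1, Etv4, Etv5, Spry2 and Dusp6 and the highest for Etv1 and Spry1. Vehicle 4 was the lowest Vehicle library for Etv4, Etv5, Spry4 and Dusp6 and the highest for Spry1. Vehicle 1 and Vehicle 4 held the most mitochondrial reads, and without both the log2 fold change of Dusp6 was 0.30 (edgeR adjusted p = 0.0496) and that of Etv5 0.21 (edgeR adjusted p = 0.314).

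Other genes of the pathway were read from 113 symbols, of which 112 were matched and 98 had enough reads to test. In TSA 29 of the 98 rose (29.6%), 8 fell (8.16%) and 61 did not pass the test, beside 15.4% and 17.6% of all tested genes. The number that fell was 5 without TSA 1 and 4 without TSA 2. Over all fits that left out 1 library, 2104 to 2891 of all genes were called lower. The all-gene numbers without TSA 1 and without TSA 2 are not given here. Over the 98 genes the median log2 fold change was 0.14. Below, levels are means ± SD and log2 fold changes are given ± SE, over 4 libraries per group. With Xist status as a covariate 9 of these 37 calls held, those of Flrt1, Gpc3, Gpc4, Sdc3, Glce, Shc3, Map2k2, Cbl and Cblb, and 20 of the 37 held in every fit that left out 1 library. The other 28 kept their direction with the covariate, at a median of 0.965 times the log2 fold change and 1.62 times the SE of the fit without it.

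**Figure D3:**
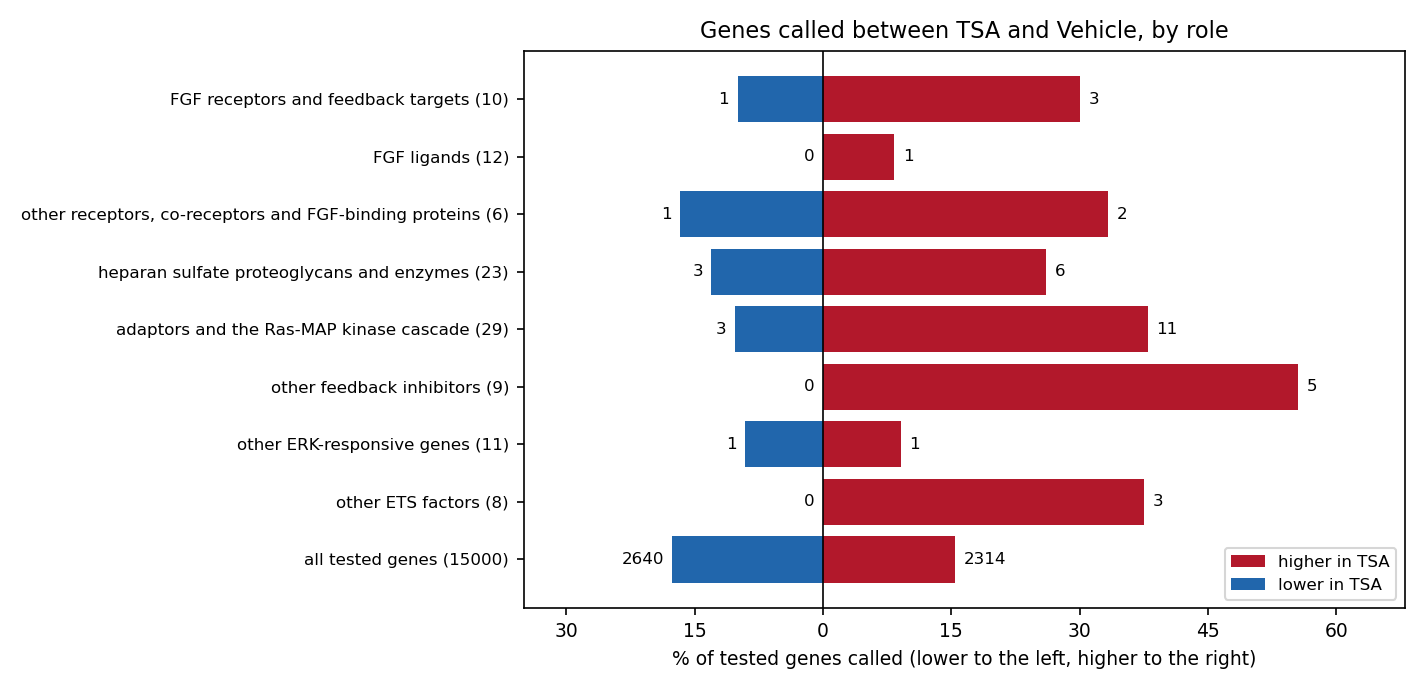
Percent of tested genes called lower (left, blue) or higher (right, red) in TSA than in Vehicle for each group of pathway genes, with the number tested in brackets and the number called at the end of each bar. Feedback inhibitors other than the members have 5 of 9 called higher and none lower, and the FGF ligands 1 of 12.

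FGF ligands, 22 in the list, had 12 with enough reads, and 1 rose. Fgf18, a ligand made by cortical neurons, had 3.96, 3.56, 2.77 and 2.88 CPM in TSA 1 to 4, against 1.51, 1.80, 2.55 and 1.74 CPM in Vehicle 1 to 4. The groups did not overlap, and the log2 fold change was 0.76 ± 0.25 (SE, 4 against 4 libraries, edgeR adjusted p = 0.0279), a call lost without TSA 1, TSA 2, Vehicle 1 or Vehicle 4. Fgf15, an FGF of the neural tube, was at 14.2 ± 4.96 CPM in TSA and 9.31 ± 3.18 CPM in Vehicle (SD, n = 4 each), with an edgeR adjusted p of 0.0756. Fgf2, a mitogen for cortical progenitors, was at 1.88 ± 0.144 CPM in TSA and 1.94 ± 0.61 CPM in Vehicle. Fgf9 was at 3.07 ± 1.23 CPM in TSA and 4.0 ± 0.306 CPM in Vehicle. Fgf3 was at 1.67 ± 0.774 CPM in TSA and 2.65 ± 0.503 CPM in Vehicle, and Fgf10 at 2.39 ± 0.618 CPM in TSA and 1.97 ± 0.544 CPM in Vehicle. Fgf17, which patterns the frontal cortex, was at 0.899 ± 0.457 CPM in TSA and 1.42 ± 1.05 CPM in Vehicle, and Fgf7 at 1.07 ± 0.616 CPM in TSA and 0.724 ± 0.214 CPM in Vehicle. Of the members that stay inside the cell and are not classical receptor ligands, Fgf13 was at 109 ± 15.2 CPM in TSA and 116 ± 21.6 CPM in Vehicle, and Fgf11 at 37.8 ± 2.32 CPM in TSA and 32.4 ± 3.96 CPM in Vehicle. Fgf14 was at 18.1 ± 1.59 CPM in TSA and 19.3 ± 4.46 CPM in Vehicle, and Fgf12 at 17.2 ± 3.04 CPM in TSA and 22.7 ± 3.69 CPM in Vehicle. None of these 4 was called.

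At the cell surface, 2 of 6 other receptor and FGF-binding genes rose and 1 fell. Flrt1, a membrane protein that binds FGF receptors, was at 37.6 ± 4.49 CPM in TSA and 24.7 ± 3.17 CPM in Vehicle (log2 fold change 0.60 ± 0.12, edgeR adjusted p = 0.00169). Fgfbp3, a carrier that binds FGFs, was at 23.4 ± 2.05 CPM in TSA and 18.1 ± 0.869 CPM in Vehicle (0.38 ± 0.11, edgeR adjusted p = 0.0140), a call lost without TSA 2. Flrt2 was at 161 ± 14.9 CPM in TSA and 219 ± 24.5 CPM in Vehicle (-0.44 ± 0.10, edgeR adjusted p = 0.00399). Of 23 heparan sulfate genes 6 rose and 3 fell. The glypican Gpc3, a heparan sulfate proteoglycan anchored to the membrane, had 9.45, 10.8, 15 and 11.9 CPM in TSA 1 to 4, against 3.58, 4.71, 3.03 and 2.61 CPM in Vehicle 1 to 4. Its log2 fold change was 1.77 ± 0.21 (SE, 4 against 4 libraries, edgeR adjusted p = 5.55e-05), the largest of the 98 pathway genes. Gpc3 and Gpc4 lie on the X chromosome, and Xist differed between the libraries as given above. Sdc3, a syndecan, was at 386 ± 24.9 CPM in TSA and 235 ± 31.4 CPM in Vehicle (0.72 ± 0.10, edgeR adjusted p = 0.000183), and Gpc4, a glypican of cortical progenitors, was at 72.6 ± 4.70 CPM in TSA and 43.5 ± 6.54 CPM in Vehicle (0.74 ± 0.11, edgeR adjusted p = 0.000201).

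Of 29 adaptor and Ras-MAP kinase genes 11 rose and 3 fell. Shc3, a neuronal adaptor, was at 19.9 ± 2.32 CPM in TSA and 10.6 ± 2.19 CPM in Vehicle (log2 fold change 0.89 ± 0.15, edgeR adjusted p = 0.000645). Gab1, a docking protein for the phosphatase encoded by Ptpn11, was at 85.8 ± 4.36 CPM in TSA and 53.9 ± 15.3 CPM in Vehicle (0.67 ± 0.15, edgeR adjusted p = 0.00443). Crk, another adaptor, was at 167 ± 7.52 CPM in TSA and 232 ± 21.1 CPM in Vehicle (-0.47 ± 0.09, edgeR adjusted p = 0.00112). The genes of this group that rose include Nf1, which switches Ras off, beside Sos1, which switches it on. The 3 that fell were Crk, Hras and Araf, and of the 8 fits that left out 1 library the call of Hras was lost in 6 and that of Araf in 4. Among those that rose, the calls of Ptpn11 and Rps6ka3 were each lost in 6 of these fits. That of Braf was lost in 4, that of Map2k2 in 2 and that of Crkl in 1. Araf and Rps6ka3 also lie on the X chromosome.

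Of 9 other feedback inhibitors 5 rose and none fell. Cbl and Cblb, ubiquitin ligases that send activated receptors to degradation, were at 200 ± 6.89 CPM in TSA against 116 ± 17.4 CPM in Vehicle for Cbl, and at 154 ± 7.82 CPM in TSA against 91.7 ± 13.8 CPM in Vehicle for Cblb. Their log2 fold changes were 0.78 ± 0.10 (edgeR adjusted p = 0.000108) and 0.75 ± 0.11 (edgeR adjusted p = 0.000175). Both act on many receptors besides those of FGF. Dusp7, another cytoplasmic phosphatase of ERK, was at 13.4 ± 0.925 CPM in TSA and 8.80 ± 0.733 CPM in Vehicle (0.60 ± 0.13, edgeR adjusted p = 0.00293), a call lost with Xist status as a covariate. Spred2 and Spred3, Sprouty-related inhibitors of Ras-ERK signalling, made up the 5. Spred2 was at 65.0 ± 4.95 CPM in TSA and 48.7 ± 7.82 CPM in Vehicle (0.41 ± 0.11, edgeR adjusted p = 0.0128), a call lost without TSA 1. Spred3 was at 46.1 ± 1.77 CPM in TSA and 35.6 ± 7.66 CPM in Vehicle (0.37 ± 0.13, edgeR adjusted p = 0.0365), a call lost in 7 of the 8 fits that left out 1 library. Both calls were lost with the covariate.

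Of 11 other ERK-responsive genes 1 rose and 1 fell. Fosl2, an AP-1 subunit, was at 47.3 ± 11.2 CPM in TSA and 28.3 ± 4.88 CPM in Vehicle (log2 fold change 0.73 ± 0.17, edgeR adjusted p = 0.00482). Epha4, an ephrin receptor, was at 366 ± 13.1 CPM in TSA and 466 ± 72.3 CPM in Vehicle (-0.35 ± 0.11, edgeR adjusted p = 0.0231), a call lost without TSA 1, TSA 2, TSA 3 or Vehicle 3. Of 8 ETS factors outside the PEA3 family 3 rose and none fell. Etv6, a repressor, was at 47.1 ± 1.85 CPM in TSA and 31.7 ± 7.32 CPM in Vehicle (0.57 ± 0.14, edgeR adjusted p = 0.00651). Ets2 was at 22.2 ± 1.87 CPM in TSA and 16.4 ± 2.89 CPM in Vehicle (0.44 ± 0.14, edgeR adjusted p = 0.0211), a call lost without TSA 2 or Vehicle 4. Elk4, a partner of serum response factor, was at 28.9 ± 1.56 CPM in TSA and 23.0 ± 3.32 CPM in Vehicle (0.33 ± 0.12, edgeR adjusted p = 0.0399), a call lost without any 1 of the TSA libraries, Vehicle 3 or Vehicle 4.

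The genes whose log2 CPM followed each member most closely over the 8 libraries are given as a description, since the libraries share treatment, depth and Xist status. Dusp6 ran closest to Nav3 (Pearson's r = 0.995) and Enc1 (0.994), both expressed in neurons. Etv1 ran closest to Cth (0.989) and Trim59 (0.985), and Fgfr1 to Mxd4 and Flrt1 (0.983 each). Etv5 ran closest to Anapc2 (0.985) and Stau1 (0.983), Etv4 to Rpl19 (0.971) and Nr2c2ap (0.961), Fgfr2 to Pcnt (0.975) and Zfp516 (0.964) and Fgfr3 to Cdc14b and Otud5 (0.972 each). Spry2 ran closest to Dnmt3b (0.986) and Tmem106a (0.911), Spry1 to Akap17b (0.961) and Galnt16 (0.956), and Spry4 to Kcnma1 and Prickle2 (0.970 each). No gene of the set was among the 2 closest to another. With only 2 places taken from the tested genes, this does not tell whether the genes of the set vary together.

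H3K9ac peaks were called in each library on its own, from 15529531, 16018415, 15365856 and 19920755 tags in TSA 1 to 4 and 11824246, 15890014, 13822996 and 24075842 tags in Vehicle 1 to 4. The lists held 46714, 53285, 32248 and 61217 peaks in TSA, against 41987, 41331, 43645 and 22668 peaks in Vehicle. Peaks covered 18.2, 20.1, 12.5 and 26.3 Mb in TSA, against 16.7, 17.2, 19.3 and 8.16 Mb in Vehicle. Vehicle 4 thus had the shortest list from the most tags and TSA 4 the longest list, so the length of a list moves with every count below.

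A peak lay within 1 kb of an annotated start in all 8 libraries for 7 of the 10 genes (Fgfr1, Fgfr2, Fgfr3, Etv1, Spry2, Spry4 and Dusp6), beside 69.9% of 11058 genes tested for RNA. Where the tables used gave no strand (Fgfr1, Etv4 and Spry4), both ends of the RefSeq span were used. Etv4 and Etv5 had a start peak in 4 TSA libraries and 3 Vehicle libraries, with none in Vehicle 4. Spry1 had one in 3 TSA and 3 Vehicle libraries, with none in TSA 3 or Vehicle 1. A difference of 1 library in 4 has a two-sided Fisher's exact p of 1.0. The second Etv1 start, at 38783711 on chromosome 12, and the lower ends of Etv4 and Spry4 had no peak in any library. Requiring that at least a 50% share of a peak or window overlap left 4 of the 7 genes. The 69.9% does not apply to this rule, and the share of all genes under it is not given here.

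**Figure D4:**
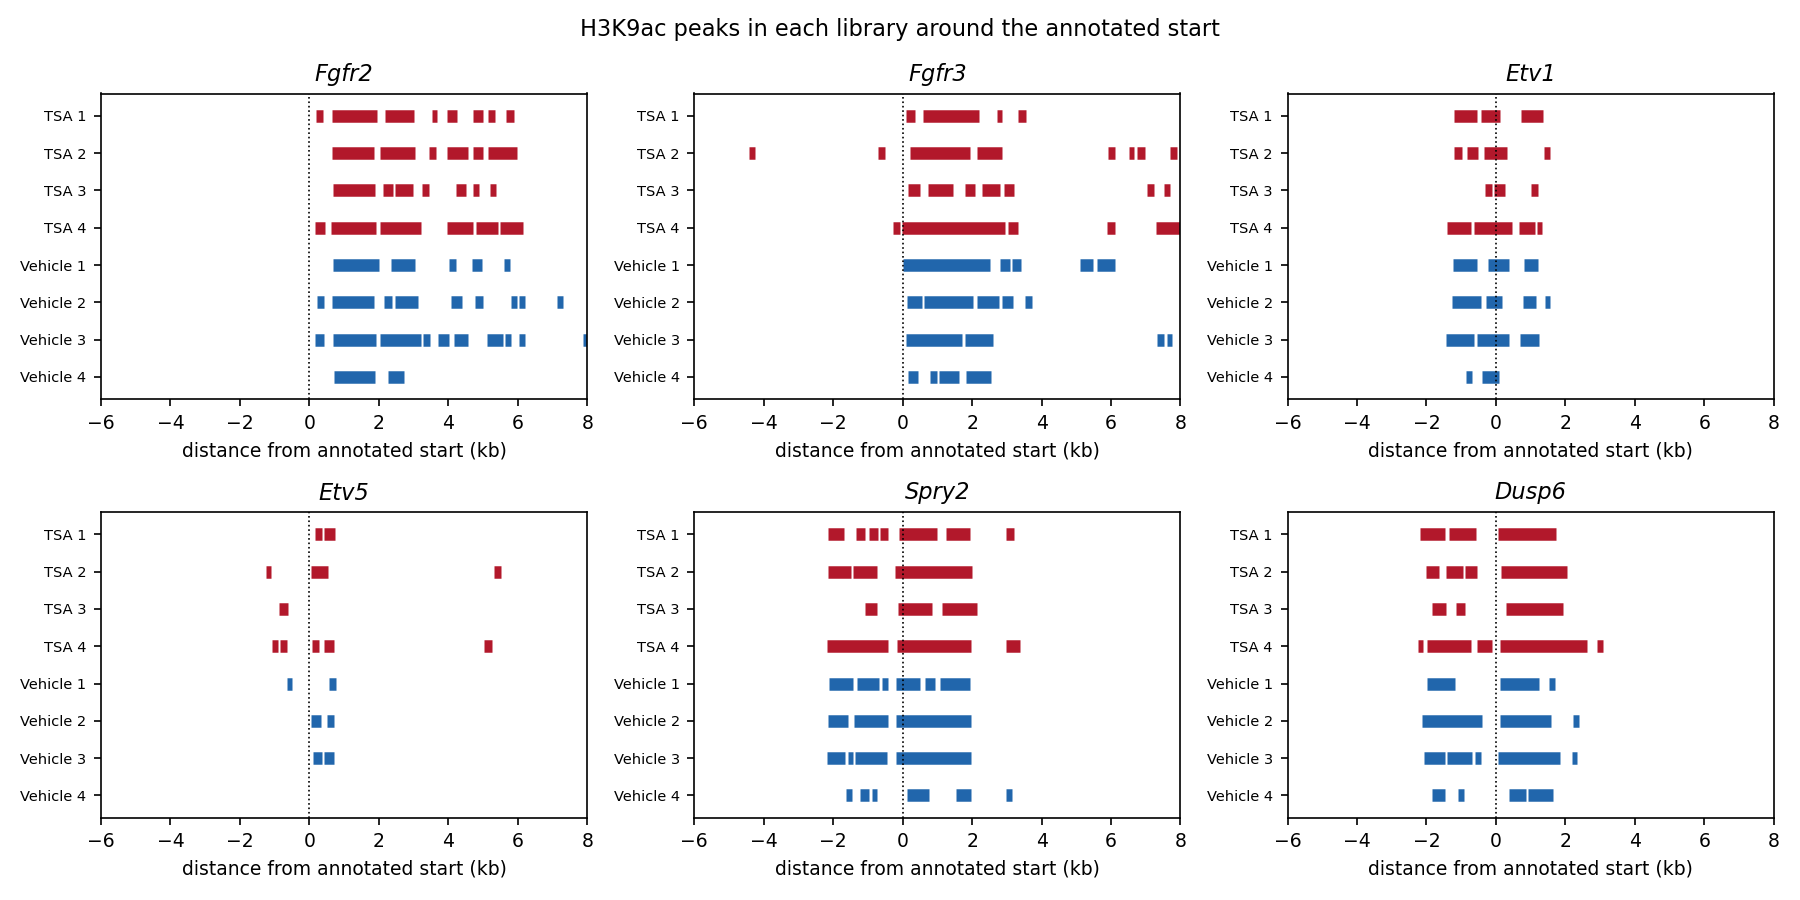
H3K9ac peaks (bars) in each library, TSA rows above Vehicle rows, by distance in kb from the first annotated start (dotted line, transcription to the right) for Fgfr2, Fgfr3, Etv1, Etv5, Spry2 and Dusp6. Etv1 has peaks across its start in all 8 libraries, Fgfr2 has them inside the gene, Dusp6 has them on both sides of the start, and Etv5 has short peaks that are absent in Vehicle 4.

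Spry2 had start peaks that ranked high in the lists. Within 1 kb of its start it had 1552, 1462, 1256 and 1743 bases inside peaks in TSA 1 to 4, against 1463, 1761, 1739 and 851 bases in Vehicle 1 to 4. Ranked by q-value within its own library's list, the best of the Spry2 peaks stood at percentile 97.4, 96.6, 86.6 and 98.3 in TSA 1 to 4, and at percentile 84.1, 96.6, 94.6 and 92.5 in Vehicle 1 to 4. In the window printed above, the run of capitals begins 147 bases before the start, and no base of it lay inside a peak in Vehicle 4.

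Dusp6 had 1372, 1236, 823 and 1585 covered bases within 1 kb of its start in TSA 1 to 4, against 871, 1478, 1437 and 623 bases in Vehicle 1 to 4. Merged over the libraries, these peaks form regions on both sides of the start, at chromosome 10, 99260997 to 99263120 and 99263295 to 99265859, each occupied in all 8 libraries. The printed Dusp6 window lies mostly in the gap between them, and 140 of its bases fell inside a peak in TSA 4 and none in the other libraries. The groups overlapped in covered bases although the Dusp6 RNA did not.

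At Etv1, whose RNA fell, the start had 1260, 989, 507 and 1704 covered bases in TSA 1 to 4, against 1253, 1233, 1563 and 654 bases in Vehicle 1 to 4, with overlapping groups. Its region, chromosome 12, 38778631 to 38780533, was occupied in all 8 libraries. Etv5, at its first start, had 517, 478, 268 and 762 covered bases in TSA 1 to 4, against 335, 451, 550 and 0 bases in Vehicle 1 to 4. These Etv5 peaks stood near the middle of their lists, at percentile 52.5 to 64.5 in TSA and 54.3 to 61.2 in Vehicle 1 to 3. In Etv4 the covered bases at the upper end of the span were 620, 231, 260 and 738 in TSA 1 to 4, against 294, 310, 594 and 0 in Vehicle 1 to 4.

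Among the receptors, Fgfr3 had the longest region of the set when merged over the libraries, 3720 bases from its start into the gene (chromosome 5, 33721715 to 33725434). Around its second start, 1269, 1358, 1048 and 1799 bases were covered in TSA 1 to 4, against 1577, 1377, 1492 and 1030 bases in Vehicle 1 to 4. Fgfr2 had its peaks inside the gene, in regions at chromosome 7, 130264798 to 130266177 and 130263606 to 130264775, and none of its RefSeq window was covered in any library. Fgfr1 had a merged region of 2752 bases at the lower end of its span (chromosome 8, 25518609 to 25521360). Within 1 kb of that end, 503, 403, 90 and 1075 bases were covered in TSA 1 to 4. In Vehicle 1 to 4 these were 987, 789, 746 and 132 bases. Fgfr1 had 2 further regions in all 8 libraries, at 25514221 to 25515517 and at 25536020 to 25537981.

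Spry4 had an uneven start. At the upper end of its span, on chromosome 18, 1682, 1321, 313 and 1583 bases were covered in TSA 1 to 4, against 478, 609, 674 and 154 bases in Vehicle 1 to 4. TSA 1, TSA 2 and TSA 4 lay above every Vehicle library, and TSA 3, whose list is the shortest of the TSA libraries, lay among them.

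Covered length was taken from 10 kb before the start to the gene end. For Fgfr1, Etv4 and Spry4, with no strand given, the window ran 10 kb beyond both ends of the span. Covered length did not reach an exact p under 0.05 for any of the 10 genes (two-sided exact permutation tests, 4 against 4 libraries, smallest possible p 0.0286). Over 10827 genes with covered bases, 2.43% reached the smallest p with more and 0.0924% with fewer bases in TSA, and none passed adjustment over all of them, against 273 at an unadjusted p under 0.05. Fgfr1 had 4590, 4642, 1982 and 6302 covered bases in TSA 1 to 4, against 3820, 2888, 3597 and 1243 bases in Vehicle 1 to 4 (exact p = 0.229). Spry4 had 1971, 1697, 313 and 1604 covered bases in TSA, against 478, 609, 674 and 154 bases in Vehicle (exact p = 0.114). Leaving out 1 library, the difference ranged between 851 and 2291 bases for Fgfr1 and between 726 and 1279 bases for Spry4. Each was largest without TSA 3, where it reached the smallest exact p, 0.0286. Without TSA 3, the shortest TSA list, and with the still shorter list of Vehicle 4 kept, 7.37% of genes reached that p with more and 0.0647% with fewer bases in TSA. Per Mb covered, with all 8 libraries, Fgfr1 had 220 ± 42.1 bases in TSA and 184 ± 33.2 in Vehicle (exact p = 0.229), and Spry4 69.7 ± 35.5 in TSA and 29.5 ± 7.72 in Vehicle (SD, n = 4 each, exact p = 0.114). Dusp6 had 3276 ± 920 covered bases in TSA and 2674 ± 865 in Vehicle (SD, n = 4 each, exact p = 0.429), and Etv1 1612 ± 738 in TSA and 1598 ± 674 in Vehicle (exact p = 0.971).

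**Figure D5:**
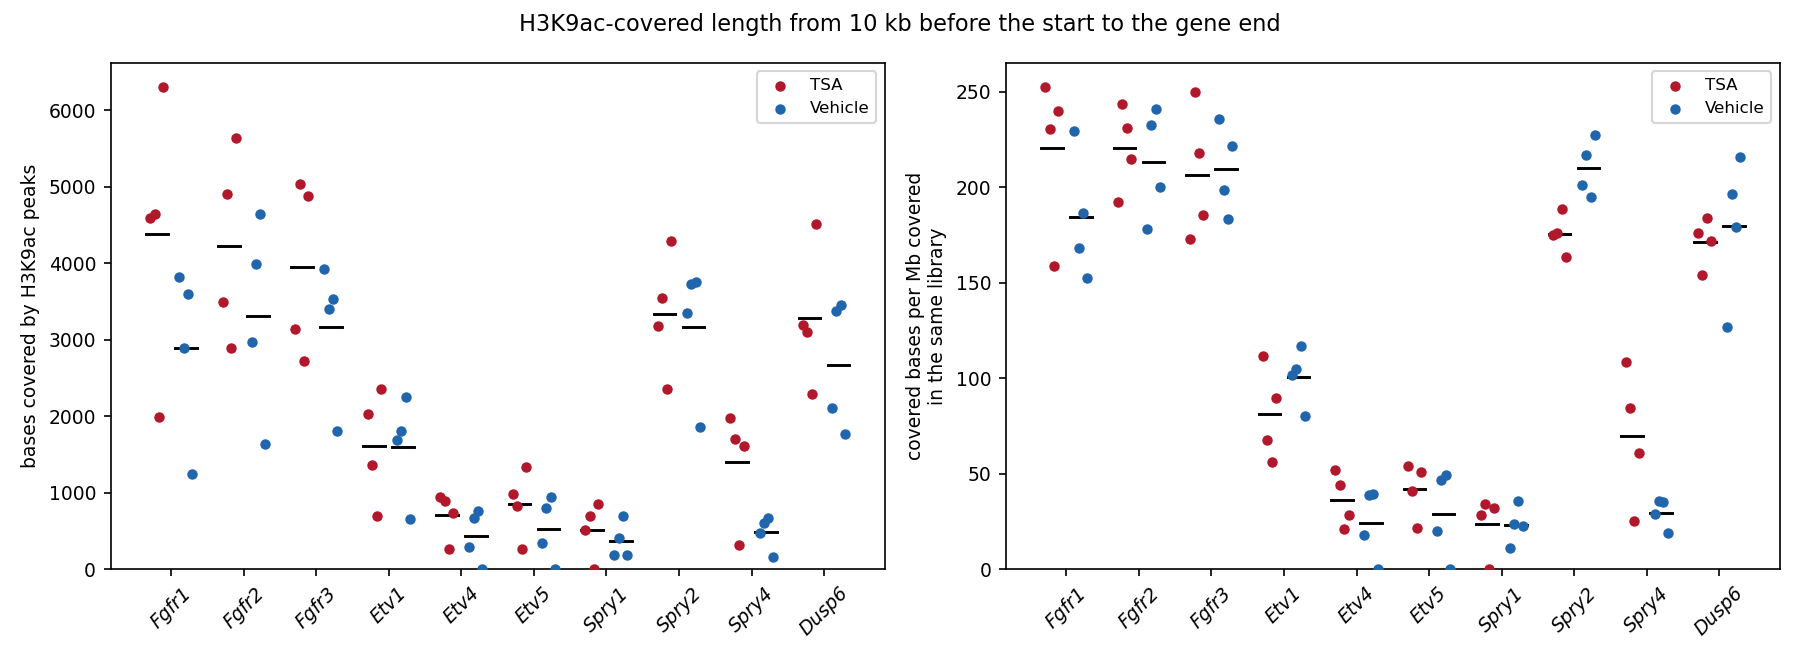
Bases covered by H3K9ac peaks (left) and the same per Mb of covered bases of the library (right) for the 10 genes, with points for libraries and lines for group means, TSA left of Vehicle for each gene. The groups overlap for all 10 genes on the left, and on the right Spry2 lies lower in TSA without overlap.

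As a share of all covered bases of a library, Spry2 had 175, 176, 188 and 163 bases per Mb in TSA 1 to 4, against 201, 217, 195 and 227 bases per Mb in Vehicle 1 to 4. On this scale the groups did not overlap, and Spry2 was lower in TSA (176 ± 10.3 in TSA, 210 ± 14.7 in Vehicle, SD, n = 4 each, exact p = 0.0286, adjusted over all genes 0.414). On the same scale 4.20% of genes reached the smallest exact p with a lower and 2.70% with a higher share in TSA. In bases the direction was the other way, at 3341 ± 804 in TSA and 3169 ± 897 in Vehicle (exact p = 0.800). The share for Dusp6 was 171 ± 12.6 per Mb in TSA and 179 per Mb in Vehicle.

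Merged over the 8 lists, peaks formed 104737 regions, of which 86 lay over the 10 genes or the 10 kb before them. For Fgfr1, Etv4 and Spry4, with no strand given, the 10 kb beyond both ends was taken. Of the 86, 12 were occupied in all 8 libraries (13.95%), beside 11.8% of all regions. In 1 library alone 47 were occupied (54.7%), beside 57.3% of all regions. None was occupied in all 4 TSA and no Vehicle library, a pattern found in 0.198% of all regions, and none in all 4 Vehicle and no TSA library, found in 0.0201%. More TSA than Vehicle libraries occupied 50 of the 86 regions and fewer occupied 13 (58.1% and 15.1%), against 55.6% and 23.3% of all regions. A stretch of Fgfr1, 25543097 to 25543463, was occupied in TSA 2, TSA 3 and TSA 4 and no Vehicle library, and one of Fgfr3, 33732195 to 33732597, in TSA 1, TSA 2 and TSA 3 and no Vehicle library. Both were named after their values were seen. The share of all regions occupied in as many TSA libraries and no Vehicle library is not given here, so these stretches have no background beside them.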

How the data were processed

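RNA was measured in 4 TSA and 4 Vehicle libraries and H3K9ac in 4 and 4. The 2 input samples were not analysed here. The authors deposited unnormalized counts of reads by Ensembl gene. The build was mm10 and SAMtools was among the tools, per the submitters' processing notes. The aligner and the counter are not named in what was read here, and the kit, per the labels' protocols, leaves strand unmarked. Peaks were called per library with MACS2 2.1.0.20140616 at a q-value limit of 0.1 against 1 input of 18937878 tags, per the file headers. The authors' columns are the pileup signal, the −log10 p-value, the fold enrichment (a ratio) and the −log10 q-value, which served only for ranks and limits inside each list.

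TSA was tested against Vehicle in edgeR 4.0.16 under R 4.3.3 (filterByExpr, TMM, robust quasi-likelihood, no covariate), with adjusted p under 0.05 over 15000 genes called. CPM used TMM-scaled totals, and correlations used log2 CPM with a prior count of 2. The fit was tested on simulated data. Depth was 6733415 to 20400727 counts per library. Replicates differed beyond sampling noise (chi-square per degree of freedom 2.98 to 32.8). Alternatives included DESeq2 1.42.0, limma 3.58.1, other scaling, no filter, the lane, Xist status or replicate number as a term, removal of a trend with gene span, and leaving out libraries.

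Peaks were merged where they shared at least 1 base. Coordinates are mm10 (GRCm38.p6), 1-based. The covered-length tests were to be adjusted over the 10 genes. Instead the exact p and the adjustment over all genes are given.

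The genes and lists were chosen with earlier results of these data known. Named were the 10 genes, up to 3 called genes with the smallest p in each pathway list and FGF ligands with at least 1 CPM. Also named were the 2 genes most correlated with each of the 10 and the first 2 markers of each marker list. Of these markers Emx1 is given, and the marker lists used are given as sums. A gene that the rule takes is not reported here. Nf1, Sos1, Hras, Araf, Ptpn11, Rps6ka3, Braf, Map2k2, Crkl, Spred2 and Spred3, and genes listed for a call that held, were named after their values were seen.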

Additional observations from a re-analysis of the deposited data

Results flagged for a closer look

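Etv4 RNA in Vehicle 1 was 6.74 CPM, far above the other Vehicle libraries, which lay at 5.54, 5.51 and 5.38 CPM. The gap to the nearest of them was a larger share of the group's range than Dixon's critical value for 4 samples. Of 40 groups examined (10 genes, RNA level and H3K9ac-covered length, TSA and Vehicle), this was the only 1 so marked, and chance marks about 1 in 20 groups. The log2 fold change of Etv4 was -0.36 with all libraries and -0.28 without Vehicle 1, with an edgeR adjusted p of 0.152 and 0.298 in that order.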

How the results depend on the processing

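With Xist status as a covariate, 757 genes were called higher and 818 lower in TSA, 1 of the 10 FGF genes higher and 0 lower, 8 pathway genes higher and 1 lower, and the log2 fold change of Spry1 turned to -0.018. The labels give no Xist status, and it cannot be fully told apart from treatment with 1 TSA library that expresses Xist. Leaving out 1 library gave 2 to 4 FGF genes higher and 1 lower, 1707 to 2702 genes higher and 2104 to 2891 lower in all, and 21 to 33 pathway genes higher and 4 to 11 lower. Same-numbered TSA and Vehicle libraries correlated at 0.0696 to 0.111 in their deviations from the group means, and differently numbered ones at -0.208 to 0.155. Not every library correlated best with its own number, and the numbers were not taken to pair libraries. This check cannot exclude that they do. With a replicate block, 4 FGF genes were called higher and 1 lower, Etv5 among them (edgeR adjusted p = 0.0132), and 2598 genes were called higher and 2744 lower. Other scaling, limma-voom, the lane and the span trend left 3 FGF genes higher and 1 lower. DESeq2 and no filter gave 4 higher and 1 lower, and no filter tested 28073 genes. The numbers of all genes called in these fits are not given here, so these counts have no background beside them. Over 17 alternatives for each of the 10 genes, 156 of 170 comparisons kept direction and call.

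For H3K9ac, a rule of at least 50% overlap left 4 genes with a start peak in all libraries. Requiring a region to be mostly covered left 1 of the 12 shared regions. The shares of all genes and regions under these rules are not given here. Leaving out 1 library gave 7 to 9 genes with a start peak, 12 to 15 regions in all libraries, 0 to 1 in every TSA and no Vehicle library, and 0 in the opposite pattern. The shares of all genes and regions without 1 library are not given here either, so these counts have no background beside them. TSA minus Vehicle in covered length turned to -14.5 bases for Etv5 and -90.2 for Spry2 with equal numbers of top peaks. As bases per Mb covered it turned to -3.12 for Fgfr3, -19.6 for Etv1, -34.3 for Spry2 and -8.24 for Dusp6. Without 1 library it ranged between -301 and 318 bases for Etv1, negative without TSA 1, TSA 4 or Vehicle 4, and between -267 and 501 for Spry2, negative without TSA 4 or Vehicle 4. The cause was not tested. Genes with few reads (Etv4, Spry4, Spry1) and the unequal peak lists limit what could be resolved.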
